A study of Homo sapiens with 24 samples.

Results

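The LINC-named long noncoding RNAs are the rows of the gene table whose name is LINC followed by digits. Of 623 such rows among 55773 gene names, 257 held 0 counts in every library, 253 averaged under 0.3 CPM (counts divided by the library total and multiplied by 1e+06) over all 24 libraries, and 113 averaged at least 0.3 CPM and are the members described here. They were chosen by their mean level over all libraries, so that level is given as a description only. Just inside the limit lay LINC00892, LINC00319 and LINC00933 (0.303, 0.312 and 0.321 CPM), and just outside lay LINC01122, LINC00654 and LINC00659 (0.279, 0.276 and 0.266 CPM). LINC00892 and LINC00933 averaged under 0.3 CPM in both control groups and so reached the limit through other groups, whereas 98 members reached it in all 8 groups. All 113 passed the filter on low counts.

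Long intergenic noncoding RNAs are transcribed by RNA polymerase II from their own promoters, and most are spliced and polyadenylated, but they carry no long reading frame. LINC names are placeholders given by the nomenclature committee to loci with no assigned function, so the group is bound by a name and not by a pathway, and some members were later found to encode small proteins. G9a (gene EHMT2) and its partner GLP place 1 or 2 methyl groups on lysine 9 of histone H3, SUV39H1 adds the third, and the methylated lysine is associated with silent chromatin.

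RNA was sequenced from U937, a human histiocytic lymphoma line with monocytic features, to ask what follows disruption of the protein complex of SUV39H1, G9a and GLP. Cells were treated with UNC0638, an inhibitor of the enzyme activity of G9a and GLP, at 2 µM or 4 µM and harvested after 3 days, with mock DMSO cells as control. Other cells received lentiviral short hairpins against G9a (numbers 2 and 3) or SUV39H1 (numbers 2 and 4) and 3 days of puromycin selection, with a scrambled hairpin as control. Each of the 8 groups held 3 libraries. Nothing in the labels makes the replicates separate cultures, so a p-value here measures the spread between these libraries, which may be technical. Libraries held 31545854 to 53803704 counts. EHMT2 stood at 69.3 to 75.6 CPM in G9a hairpin libraries and 134 to 150 CPM in scrambled libraries, and SUV39H1 at 18.8 to 24.6 CPM in SUV39H1 hairpin libraries and 54.9 to 57.9 CPM in scrambled libraries. Of 14 monocytic markers, 13 exceeded 1 CPM in some library and CD14 did not (at most 0.729 CPM). The 3 erythroid markers summed to under 0.05 CPM in each library.

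Promoters are shown for 4 members whose direction differed between the inhibitor and the knockdowns or between both knockdowns, or, for LINC00211, that was called higher in all 3. LINC00974 lies at chr17:41554446-41554745 on the minus strand, LINC00996 at chr7:150433404-150433703 on the plus strand, LINC00211 at chr2:37829662-37829961 on the minus strand and LINC00263 at chr10:100373326-100373625 on the plus strand. These are RefSeq sequences of build GRCh38.p14, written 5′ to 3′ from 250 bases before to 50 bases after the start, and no letter is in capitals because neither motif searched was found.

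LINC00974: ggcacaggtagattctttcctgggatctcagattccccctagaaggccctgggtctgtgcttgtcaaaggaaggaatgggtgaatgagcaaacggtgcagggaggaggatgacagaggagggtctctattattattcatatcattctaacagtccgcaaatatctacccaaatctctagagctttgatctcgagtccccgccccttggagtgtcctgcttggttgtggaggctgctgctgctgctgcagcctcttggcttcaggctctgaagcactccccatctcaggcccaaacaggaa
LINC00996: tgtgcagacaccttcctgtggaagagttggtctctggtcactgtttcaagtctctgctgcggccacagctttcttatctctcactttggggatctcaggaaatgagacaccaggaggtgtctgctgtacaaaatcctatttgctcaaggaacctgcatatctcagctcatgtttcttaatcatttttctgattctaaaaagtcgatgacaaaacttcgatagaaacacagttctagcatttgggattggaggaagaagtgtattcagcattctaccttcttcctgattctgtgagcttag
LINC00211 (PIRAT1): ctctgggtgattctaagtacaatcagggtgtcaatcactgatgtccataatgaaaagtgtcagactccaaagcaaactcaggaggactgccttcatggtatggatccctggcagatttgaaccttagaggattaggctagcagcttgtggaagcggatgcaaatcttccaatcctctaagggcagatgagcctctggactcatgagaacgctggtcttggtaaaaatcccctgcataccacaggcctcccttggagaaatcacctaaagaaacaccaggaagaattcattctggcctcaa
LINC00263 (OLMALINC): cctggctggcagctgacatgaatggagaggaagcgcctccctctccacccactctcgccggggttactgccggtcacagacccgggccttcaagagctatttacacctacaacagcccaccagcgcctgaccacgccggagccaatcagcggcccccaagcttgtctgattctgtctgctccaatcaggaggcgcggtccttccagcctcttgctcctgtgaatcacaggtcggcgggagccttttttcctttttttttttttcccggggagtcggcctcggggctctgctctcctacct

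RefSeq promoters were matched for 83 of the 113 members. The interferon-response motif, searched on both strands as GAAA, any 2 bases and GAAA, was in 0 of the 83 and in 3.57% of all 35116 promoters, and the STAT motif TTCNNNGAA, also on both strands, was in 3 of the 83 (3.61%, in LINC00152, LINC00324 and LINC00998) and in 7.66% of all. The motifs can overlap each other, and a missing match says only that these letters are not in the window. Of the promoters printed, that of LINC00263 held 16 CpG dinucleotides, against 4 in LINC00974, 3 in LINC00996 and 2 in LINC00211. The median was 14 over the 83 member promoters and 14 over all promoters. No member overlapped any of 85 listed interferon-stimulated genes.

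The members lay on 23 chromosomes, with a median summed exon length of 2703 bases. Their median mean level was 1.7 CPM, with 41 members under 1 CPM and 19 at 10 CPM or more. All 113 matched a RefSeq gene, 40 of them under a newer symbol, and RefSeq lists 98 as long noncoding and 15 as protein coding. Among the 15 are LINC00116 (MTLN, a mitochondrial micropeptide), LINC00493 (SMIM26) and LINC00998 (SMIM30). The library kit does not mark strand, and 59 members overlap another row of the table, 37 of them a tested one. Reads from bases shared with the partner cannot be told apart by strand.

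Per kilobase of exon, LINC00657 was the highest member at 85.2 CPM per kb. It is NORAD, which binds PUMILIO proteins and helps keep the genome stable. LINC00926 followed at 26.8 CPM per kb, LINC00984 (INAFM2) at 25.3, LINC00426 at 16.3 and LINC00493 at 13.3, and LINC00339, LINC00847, LINC00116, LINC00998 and LINC00341 (SYNE3) lay between 8.71 and 11.9 CPM per kb. The highest group mean of NORAD was 1.33 times its lowest, and that of LINC00116 1.26 times, against 1.61 for LINC00426, 1.71 for LINC00847 and 2.53 for LINC00926. Over all members the median ratio of the highest to the lowest group mean was 1.80; 45 members reached 2 and 35 stayed under 1.5. LINC00330 (14.97 times), LINC00974 (8.16), LINC01094 (8.10), LINC00211 (8.01) and LINC00856 (6.83) had the widest ranges, and LINC00476 (1.10) the narrowest. The group with SUV39H1 hairpin 2 was highest for 44 members and hairpin 4 for 24, and the scrambled group was lowest for 33. These CPM lack the TMM scaling of the tests, whose factors were 1.03 to 1.07 in SUV39H1 libraries and 0.968 to 0.975 in scrambled ones. SUV39H1 libraries therefore stand higher against scrambled ones in this tally than in the tests, and no such tally was made over all genes.

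**Figure D1:**
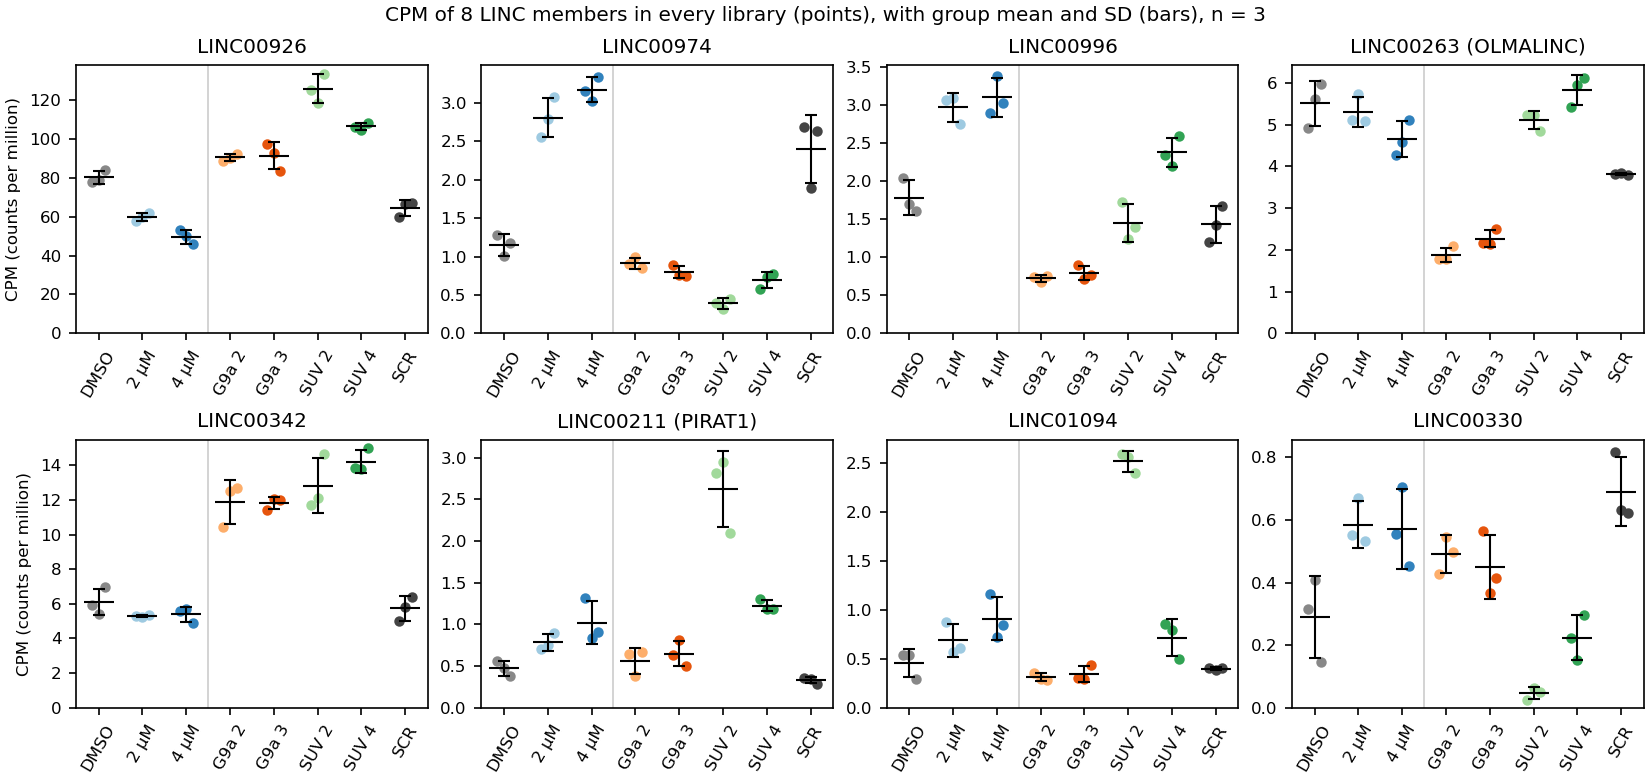
Level (CPM) of 8 members in each of the 24 libraries, 1 panel per member. Points are libraries, and bars are the group mean and SD (n = 3). The doses run from DMSO to 4 µM, followed by the hairpin groups and scrambled. LINC00926 falls with dose and is highest with SUV39H1 hairpin 2, and LINC00974 is above DMSO with the inhibitor and below scrambled in all 12 knockdown libraries.

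At 4 µM UNC0638, 13 members rose and 15 fell, LINC00926 among the fallen as the second most abundant per kilobase. LINC01132, LINC00974, LINC00211, LINC00330 and LINC01094 were at least 2-fold higher than in DMSO (4.42% of members, against 1.86% of all genes called at that size), and LINC00926 was the fallen member with the smallest p. These 28 were 24.8% of the 113 members (quasi-likelihood test of edgeR over all 20147 genes, Benjamini-Hochberg adjusted p under 0.05), set against 19.9% of all genes (10.2% higher and 9.73% lower). The median log2 fold change was -0.11 over the members and -0.01 over all genes. Without DMSO replicate 3 the count was 18, and in a fit of these 6 libraries alone it was 15.

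LINC00926 had 53.2, 49.9 and 46.1 CPM at 4 µM and 77.9, 78.7 and 84.3 CPM in DMSO. The groups did not overlap, and the log2 fold change was -0.69 ± 0.06 (SE, adjusted p = 6.57e-10). At 2 µM the libraries had 57.8, 59.7 and 62.0 CPM, between both other groups, with a log2 fold change of -0.43 ± 0.06 against DMSO (adjusted p = 5.82e-06). It was the 1 member called between the doses, with means of 49.7 ± 3.56 CPM at 4 µM and 59.8 ± 2.10 CPM at 2 µM (SD, n = 3) and a log2 difference of -0.26 ± 0.06 (adjusted p = 0.0114). That call covers 0.885% of members, against 1.84% of all genes (0.452% lower), and was lost without 2 µM replicate 3, 4 µM replicate 2 or 4 µM replicate 3 (adjusted p = 0.0891, 0.0503 and 0.0996).

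LINC00974 had 3.16, 3.02 and 3.34 CPM at 4 µM and 1.28, 1.00 and 1.17 CPM in DMSO. Every treated library was above every control, with a log2 fold change of 1.45 ± 0.13 (adjusted p = 2.21e-09). At 2 µM it had 2.56, 2.79 and 3.07 CPM and a log2 fold change of 1.27 ± 0.13. On the hg19 coordinates of the files it lies at chr17:39705858-39710747, overlaps no other row, and its nearest tested gene is KRT9, a keratin of palm and sole skin, 11.3 kb away on the same strand. KRT9 had 14.2, 13.5 and 14.4 CPM at 4 µM and 5.53, 6.47 and 6.13 CPM in DMSO, a log2 fold change of 1.23 ± 0.07 (adjusted p = 5.03e-13), and 1.08 ± 0.07 at 2 µM.

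LINC00996, which lies 2.5 kb from the immune GTPase gene GIMAP8, had 2.89, 3.38 and 3.02 CPM at 4 µM and 2.04, 1.70 and 1.61 CPM in DMSO. The groups did not overlap (log2 fold change 0.80 ± 0.11, adjusted p = 8.56e-06), and 2 µM gave 0.72 ± 0.12. GIMAP8 was not called at either dose (log2 fold change 0.12 ± 0.06, adjusted p = 0.155, at 4 µM). LINC01132 averaged 0.919 ± 0.208 CPM at 4 µM and 0.334 ± 0.0805 CPM in DMSO, a log2 fold change of 1.46 ± 0.22, the largest among members at this dose. LINC00211 averaged 1.02 ± 0.257 CPM at 4 µM and 0.470 ± 0.0926 CPM in DMSO (1.12 ± 0.23, adjusted p = 0.000837). LINC00211 is PIRAT1, a PU.1-dependent RNA of human monocytes that dampens alarmin genes.

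LINC01094 averaged 0.910 ± 0.223 CPM at 4 µM and 0.455 ± 0.141 CPM in DMSO (log2 fold change 1.04 ± 0.23), and LINC00504 averaged 2.39 ± 0.374 CPM at 4 µM and 1.27 ± 0.136 CPM in DMSO (0.90 ± 0.15). LINC00330 rested on 23 to 31 counts per library at 4 µM and 7 to 14 in DMSO, and its log2 fold change of 1.04 ± 0.27 was 0.68 (adjusted p = 0.133) without DMSO replicate 3. NORAD (LINC00657), the most abundant member, averaged 459 ± 16.9 CPM at 4 µM and 420 ± 31.6 CPM in DMSO, libraries that overlapped, with a log2 fold change of 0.14 ± 0.04 (adjusted p = 0.0252), and LINC00998 changed by 0.34 ± 0.10. LINC00592 (0.62 ± 0.16) completed the 8 named as higher, and its call was lost without 4 µM replicate 1 or DMSO replicate 2. Among lower members, LINC00847 averaged 24.1 ± 1.42 CPM at 4 µM and 31.4 ± 1.21 CPM in DMSO (-0.37 ± 0.05, adjusted p = 1.61e-06), and LINC00641 averaged 4.78 ± 0.675 CPM at 4 µM and 6.82 ± 0.492 CPM in DMSO (-0.51 ± 0.09). LINC01011 (-0.58 ± 0.14) and LINC00938 (-0.37 ± 0.08) also fell. The calls of LINC00869 (-0.78 ± 0.26, adjusted p = 0.0403), LINC00672 (-0.68 ± 0.20) and LINC01125 (-0.39 ± 0.12) were each lost without 1 or another library, and that of LINC00869 with DESeq2 too (adjusted p = 0.128).

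At 2 µM 9 members were higher and 4 lower than in DMSO (11.5%), against 7.17% of all genes (3.83% higher and 3.34% lower). LINC01132 (log2 fold change 1.34 ± 0.23), LINC00974 and LINC00330 (1.07 ± 0.28) were at least 2-fold higher (2.65% of members, against 1.01% of all genes), and LINC00996, LINC00592 (0.73 ± 0.16), LINC00504 (0.58 ± 0.16), LINC00920 (0.54 ± 0.12), LINC00337 (0.45) and LINC00892 (0.93 ± 0.28) rose less. The lower members were LINC00672 (-0.75 ± 0.20), LINC00926, LINC00641 (-0.37 ± 0.09) and LINC00847 (-0.35 ± 0.05). The calls of LINC00892, LINC00330, LINC00672 and LINC00504 were lost when 1 library was left out, each under at least 2 such choices, and LINC00641 without DMSO replicate 3. LINC00892, the member nearest the limit, held 20 to 24 counts per library at 2 µM and 6 to 17 in DMSO. Both doses share the DMSO libraries, so their responses are not independent. The summed level of the 14 monocytic markers was 1498 to 1608 CPM at 4 µM and 1597 to 1677 CPM at 2 µM, against 1835 to 2030 CPM in DMSO, and its part in these results was not tested.

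**Figure D2:**
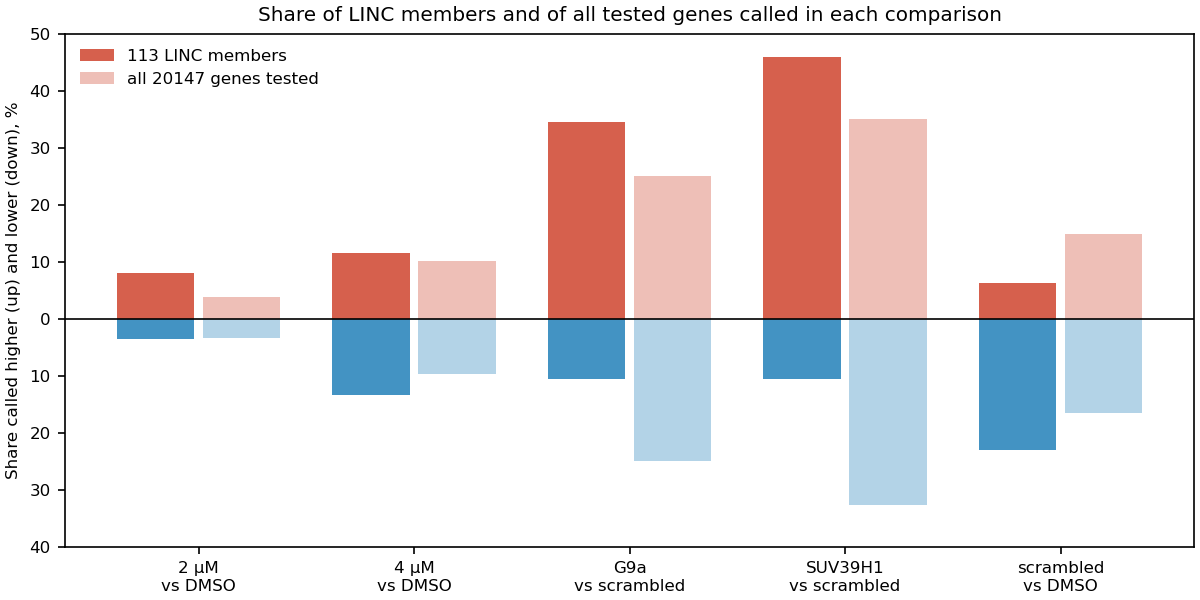
Share (%) of the 113 members (solid bars) and of all 20147 tested genes (pale bars) called higher (red, upward) or lower (blue, downward) in 5 comparisons: 2 µM and 4 µM against DMSO, G9a and SUV39H1 hairpins against scrambled, and scrambled against DMSO. The knockdown bars of the members reach further up than down, and the bar of scrambled against DMSO further down than up.

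With the mean of the G9a hairpins, LINC00974, LINC00996, LINC00330 and LINC00504, all higher at 4 µM than in DMSO, were lower than in scrambled libraries. LINC00504 was called with neither hairpin alone (edgeR adjusted p = 0.094 with hairpin 2 and 0.0777 with hairpin 3, libraries overlapping). LINC00330 was called with hairpin 3 (adjusted p = 0.0386) but not with hairpin 2 (0.0894). Both LINC00330 and LINC00504 were higher than in DMSO (0.79 ± 0.25 and 0.42 ± 0.14). Against scrambled, LINC00342 and LINC00957 were about 2-fold higher, and LINC00263 fell. In all, 39 members were higher, 12 lower and 62 not called (45.1% called), against 49.9% of all genes (25% higher and 24.9% lower), with a median log2 fold change of 0.12 over the members and 0.01 over all genes. Against the DMSO libraries instead, a setting chosen after seeing the data, the split was 31 higher and 25 lower (all genes 22.5% higher and 24.1% lower): 20 of the 39 were also higher (51.3%, against 57.8% among all genes), 2 were lower, and 9 of the 12 were also lower (75%, against 59.8%). The 2 that turned were LINC00847 (0.23 ± 0.04 against scrambled and -0.28 ± 0.04 against DMSO) and LINC00856 (0.98 ± 0.33 and -0.68 ± 0.25). The hairpins were called apart for 0 members (edgeR, hairpin 3 against 2), against 0.00993% of all genes, with 3 members at an unadjusted p under 0.05 and 0 with DESeq2.

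LINC00342 had 10.4, 12.5 and 12.7 CPM with G9a hairpin 2 and 11.4, 12.1 and 12.0 CPM with hairpin 3, against 4.99, 5.82 and 6.41 CPM in scrambled libraries. No knockdown library reached down to a scrambled one, and the log2 fold change was 1.02 ± 0.09 (adjusted p = 2.22e-10). Against DMSO it was 0.96 ± 0.09. LINC00342 lies on chromosome 2 beside ANKRD36C (32.6 kb, log2 fold change 0.35), one of a family of near-identical genes, so counts in this region are uncertain. LINC00957 averaged 0.623 ± 0.0662 CPM with the G9a hairpins (n = 6) and 0.299 ± 0.0766 CPM with scrambled (1.08 ± 0.19), and overlaps RASA4CP, which was called in the same direction (0.90).

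LINC00854 (0.89 ± 0.10) likewise shares its locus with TMEM106A (0.71), read from the opposite strand. LINC00174 averaged 6.39 ± 0.811 CPM with the G9a hairpins and 3.66 ± 0.197 CPM with scrambled (0.78 ± 0.10), although scrambled was also below DMSO (-0.34 ± 0.12). LINC00893 (0.82 ± 0.18), LINC00592 (0.89 ± 0.16) and LINC00211 (0.85 ± 0.25) rose, and LINC00886 (0.93 ± 0.30) lost its call without scrambled replicate 1 or 2. For LINC00211 the difference from DMSO was 0.37 ± 0.23 and was not called. LINC00926 had 83.7 to 97.3 CPM in the 6 G9a libraries and 60.01 to 67.2 CPM in scrambled ones (0.48 ± 0.05, adjusted p = 8.28e-09), and its difference from DMSO was 0.19 ± 0.05.

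LINC00974 had 0.900, 0.988 and 0.851 CPM with G9a hairpin 2 and 0.895, 0.760 and 0.742 CPM with hairpin 3, against 2.69, 1.90 and 2.63 CPM in scrambled libraries. All 6 knockdown libraries were below all 3 scrambled ones (log2 fold change -1.48 ± 0.12, adjusted p = 1.43e-10). Scrambled itself was above DMSO by 1.05 ± 0.14, and the difference of the G9a hairpins from DMSO was -0.43 ± 0.14. KRT9 had 3.41 to 4.89 CPM in the G9a libraries and 9.81 to 11.2 CPM in scrambled ones (-1.41 ± 0.07). For KRT9 too, scrambled was above DMSO (0.84 ± 0.07), and the difference of the G9a hairpins from DMSO was -0.57 ± 0.07.

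LINC00996 had 0.673 to 0.895 CPM in the 6 G9a libraries and 1.197, 1.417 and 1.675 CPM in scrambled ones, a log2 fold change of -0.95 ± 0.14 (adjusted p = 1.86e-06), and -1.23 ± 0.13 against DMSO. LINC00263 is OLMALINC, which lies 8.8 kb from SCD on hg19 and has been tied to SCD in human liver cells. It had 1.78, 1.79 and 2.08 CPM with hairpin 2 and 2.17, 2.13 and 2.51 CPM with hairpin 3, against 3.83, 3.85 and 3.81 CPM in scrambled libraries. The groups did not overlap (-0.90 ± 0.09, adjusted p = 4.29e-09). SCD, the desaturase that makes oleic acid, was at 241 to 257 CPM in G9a libraries and 399 to 407 CPM in scrambled ones (-0.71 ± 0.03). For SCD, scrambled was above DMSO by 0.25 ± 0.04, and the difference of the G9a hairpins from DMSO was -0.46 ± 0.03. LINC00662 (-0.55 ± 0.05), LINC01088 (-0.62 ± 0.15) and LINC00426 (-0.23 ± 0.04) also fell.

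With the mean of the SUV39H1 hairpins, LINC00856, LINC00211, LINC00482, LINC00671 and LINC01094 were over 3-fold higher than in scrambled libraries. LINC00330, the largest change of any member in the 4 main comparisons, and LINC00974 were over 4-fold lower. In all, 52 members were higher and 12 lower (56.6%), against 67.8% of all genes (35.1% higher and 32.7% lower), with a median log2 fold change of 0.24 over the members and 0.03 over all genes. At least 2-fold, 14 were higher and 3 lower (15%), against 9.47% of all genes. Against DMSO, chosen after seeing the data, the counts were 43 and 15 (all genes 29.9% higher and 30.8% lower), and 36 of the 52 (69.2%, against 72.3% among all genes) and 10 of the 12 (83.3%, against 77.6%) kept their direction and call.

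LINC00211 had 2.82, 2.95 and 2.10 CPM with SUV39H1 hairpin 2 and 1.30, 1.19 and 1.18 CPM with hairpin 4, against 0.350, 0.345 and 0.287 CPM in scrambled libraries. The 3 groups did not overlap, with a log2 fold change of 2.33 ± 0.20 for the mean of the hairpins (adjusted p = 1.26e-10) and -1.12 ± 0.15 for hairpin 4 against 2. CDC42EP3, a regulator of septins and actin 87.8 kb away, was at 178 to 189 CPM with hairpin 2, 109 to 112 CPM with hairpin 4 and 62.2 to 65.6 CPM with scrambled (1.04). LINC01094 had 2.60, 2.57 and 2.40 CPM with hairpin 2 and 0.855, 0.798 and 0.499 CPM with hairpin 4, against 0.409, 0.383 and 0.407 CPM with scrambled. Its log2 fold change was 1.65 ± 0.20 for the mean of the hairpins, 2.56 ± 0.20 with hairpin 2 and 0.74 ± 0.25 with hairpin 4.

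LINC00482 had 9.23, 8.15 and 9.40 CPM with hairpin 2 and 5.45, 6.38 and 6.08 CPM with hairpin 4, against 2.04, 1.70 and 2.27 CPM with scrambled (1.77 ± 0.13, adjusted p = 6.60e-12). LINC00968 (1.57 ± 0.19) and LINC00672 (1.37 ± 0.14) rose as well, the second next to LASP1, an actin-binding protein gene 3.4 kb away that changed by 0.33. For LINC00856 (2.35 ± 0.27) and LINC00671 (1.74 ± 0.22) scrambled was itself below DMSO (-1.66 ± 0.34 and -1.01 ± 0.27), and their differences from DMSO were 0.70 ± 0.20 and 0.72 ± 0.18. LINC00565 is SWINGN, known in human cancer cells for sustaining GAS6. It averaged 0.853 ± 0.340 CPM with the SUV39H1 hairpins and 0.30 ± 0.0765 CPM with scrambled (1.28 ± 0.24). By hairpin, LINC00565 averaged 1.15 CPM with hairpin 2 and 0.556 CPM with hairpin 4. Its difference from DMSO was 0.60 ± 0.21, with overlapping libraries. GAS6, at most 0.934 CPM in any library, changed by -1.23 against scrambled (-1.84 with hairpin 2 and -0.62 with hairpin 4).

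LINC00330 held 1, 2 and 2 counts with SUV39H1 hairpin 2 and 12, 7 and 13 counts with hairpin 4, against 28, 33 and 26 counts in scrambled libraries. All 6 knockdown libraries lay below the scrambled ones (log2 fold change -2.83 ± 0.29, adjusted p = 1.99e-09), though so few counts fix the size poorly. Scrambled was above DMSO by 1.33 ± 0.27, and the difference from DMSO was -1.50 ± 0.37. LINC00974 had 0.399, 0.317 and 0.450 CPM with hairpin 2 and 0.576, 0.733 and 0.771 CPM with hairpin 4, all below the scrambled libraries (-2.28 ± 0.14, adjusted p = 4.66e-14) and below DMSO (-1.24 ± 0.16). KRT9 changed by -1.70 against scrambled and by -0.86 ± 0.08 against DMSO.

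LINC00958 averaged 0.218 ± 0.108 CPM with the SUV39H1 hairpins and 0.707 ± 0.201 CPM with scrambled (-1.90 ± 0.26). Smaller falls were seen in LINC00094 (BRD3OS, -0.56 ± 0.05), which overlaps BRD3, in LINC00422 (-0.53 ± 0.07) and in LINC00493 (-0.33 ± 0.07). LINC01006 (-0.36 ± 0.12) lost its call without scrambled replicate 3 (adjusted p = 0.0546). LINC00263 had 4.85 to 6.12 CPM in the 6 SUV39H1 libraries, above the scrambled ones (0.40 ± 0.08, adjusted p = 6.90e-05) but not called against DMSO (-0.10 ± 0.07). SCD changed by -1.13 against scrambled and by -0.88 ± 0.03 against DMSO. LINC00996 had 2.20 to 2.59 CPM with hairpin 4, above scrambled (0.59 ± 0.12, adjusted p = 0.00019), and 1.24 to 1.72 CPM with hairpin 2, which was not called (-0.06 ± 0.14). NORAD (LINC00657) fell by 0.27 on the log2 scale with the SUV39H1 hairpins and rose by 0.12 ± 0.04 with the G9a hairpins.

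**Figure D3:**
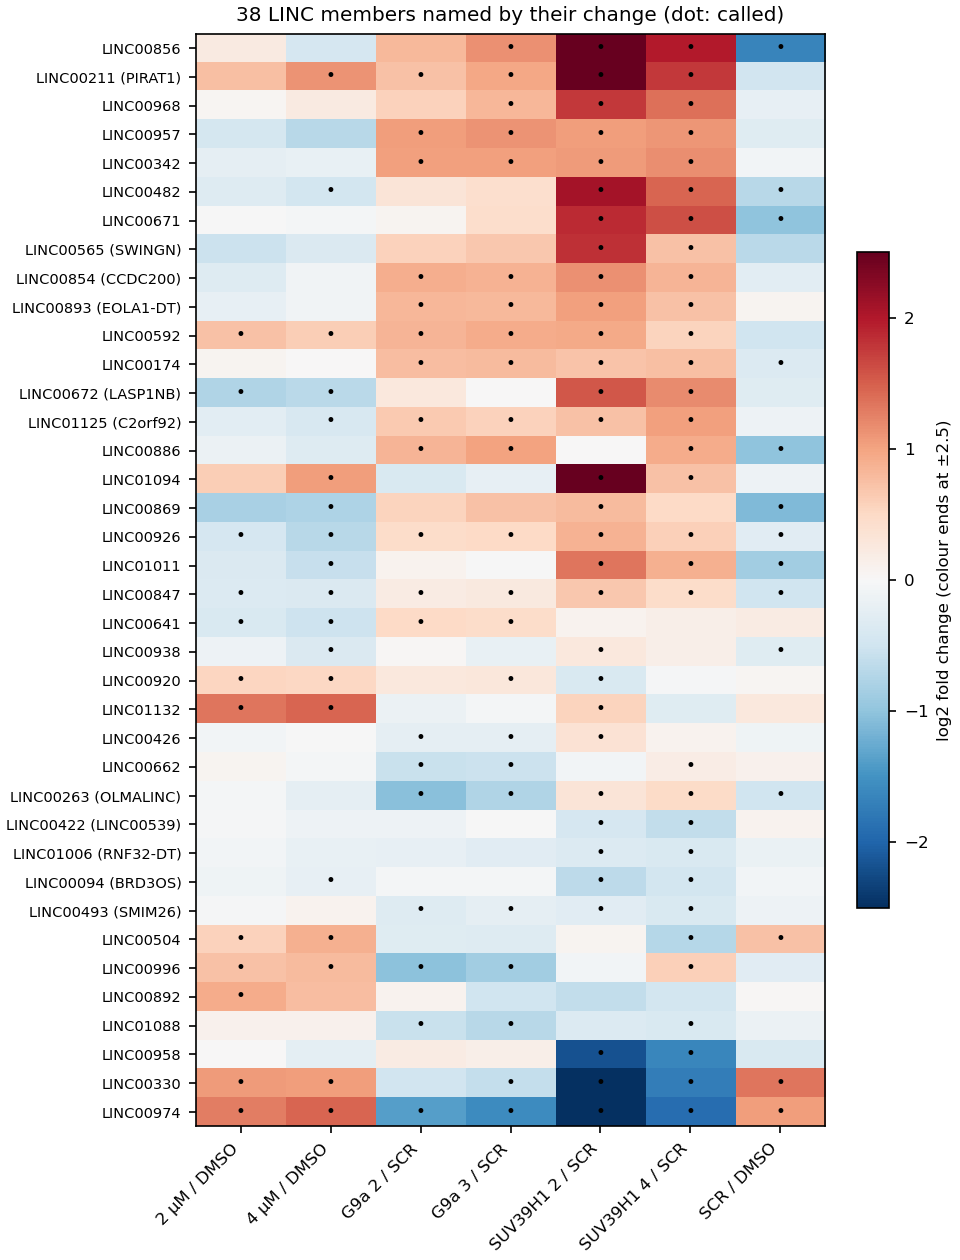
Log2 fold changes of 38 named members (rows) at 2 µM and 4 µM against DMSO, with each G9a and SUV39H1 hairpin against scrambled, and for scrambled against DMSO (columns). Red is higher, blue is lower, values beyond the scale take its end colour, and a dot marks an adjusted p under 0.05. LINC00974 is red with the inhibitor and in scrambled against DMSO, and blue with all 4 hairpins.

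The SUV39H1 hairpins differed from each other. Hairpin 4 against hairpin 2 gave 17 higher and 31 lower members (42.5%), against 42.9% of all genes (22% higher and 20.9% lower). LINC00925 had 1.06, 1.08 and 1.27 CPM with hairpin 4 and 0.324, 0.349 and 0.475 CPM with hairpin 2, with no overlap (log2 difference 1.51 ± 0.26). LINC00959 (1.46 ± 0.29) was called higher with hairpin 4 and lower with hairpin 2 against scrambled, the 1 member with opposite calls, while LINC01094 (-1.83 ± 0.17), LINC00211 and LINC00565 (-1.09 ± 0.21) were lower with hairpin 4. SUV39H1 itself was at 21.1 to 24.6 CPM with hairpin 4 and 18.8 to 19.6 CPM with hairpin 2. EHMT2 was at 134.1 to 138.5 CPM with hairpin 4 and 110.4 to 114.1 CPM with hairpin 2 (log2 difference 0.24 ± 0.06, adjusted p = 0.00305). Against scrambled, EHMT2 was lower with hairpin 2 (-0.41 ± 0.06) and less so with hairpin 4 (-0.16 ± 0.06). The monocytic marker sum was 3303 to 3314 CPM with hairpin 4 and 4898 to 5035 CPM with hairpin 2.

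Higher with all 4 hairpins against scrambled were 21 members, of which 12 were also higher against DMSO in both knockdown means: LINC00174, LINC00265, LINC00342, LINC00854, LINC00893, LINC00894, LINC00926, LINC00957, LINC00969, LINC01001, LINC01002 and LINC01125. Lower with all 4 were LINC00974 and LINC00493. Of all genes, 12.1% were higher and 12% lower with all 4, and 56.5% of the higher ones were also higher against DMSO in both means, compared with 57.1% of the 21. By hairpin, 22.1% of all genes were higher and 22.3% lower with G9a hairpin 2, 22.6% and 22.1% with G9a hairpin 3, 34.5% and 32.6% with SUV39H1 hairpin 2, and 31.8% and 29.2% with SUV39H1 hairpin 4. Both knockdowns share the scrambled libraries, so these counts are not independent. The monocytic marker sum was 2763 to 3006 CPM with the G9a hairpins, 3303 to 5035 CPM with the SUV39H1 hairpins and 1888 to 1993 CPM with scrambled. The sum is not weighted and leans on abundant genes: group means of LYZ ran from 273.7 to 2563 CPM and of ELANE from 268.6 to 819.2 CPM. It therefore does not show that the markers moved together. The part of this sum in the members' changes was not tested. In bulk RNA, fewer cells of a type and less RNA per cell cannot be told apart.

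G9a and SUV39H1 hairpins differed directly for 60 members, 16 higher and 44 lower with G9a (53.1%), against 65.5% of all genes (32.9% higher and 32.6% lower). LINC00330 (log2 difference 2.29 ± 0.27) and LINC00958 (2.08 ± 0.21) were higher with the G9a hairpins, and LINC00610 was too, though its groups overlapped (0.82 ± 0.23). LINC01094 (-1.94 ± 0.17), LINC00211 (-1.48 ± 0.14) and LINC00671 (-1.48 ± 0.16) were lower. LINC00263 averaged 1.88 and 2.27 CPM with the G9a hairpins and 5.11 and 5.83 CPM with the SUV39H1 hairpins (-1.30 ± 0.07, adjusted p = 7.38e-15). LINC00342 did not pass the test (-0.09 ± 0.06, adjusted p = 0.19).

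Scrambled against DMSO, both controls, gave 7 higher and 26 lower members (29.2%), against 31.4% of all genes (14.9% higher and 16.5% lower), with a median log2 difference of -0.16 over the members and -0.01 over all genes. LINC00974, LINC00330 and LINC00514 (log2 difference 0.79 ± 0.25) were higher with scrambled, and LINC00856, LINC00869 (-1.11 ± 0.28) and LINC00671 lower. LINC00514 and LINC00671 lost their calls when 1 library was left out (LINC00671 without DMSO replicate 3, adjusted p = 0.0759). Scrambled was below DMSO for 11 of the 39 members higher with the G9a hairpins and for 20 of the 52 higher with the SUV39H1 hairpins. These are 28.2% and 38.5%, against 33.7% and 34.8% among all genes called higher with each knockdown. Transduction, puromycin, the scrambled hairpin and DMSO cannot be told apart in this comparison.

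The inhibitor acts on the enzyme activity of G9a and GLP, and the G9a hairpins lower the RNA of G9a. They were compared through the difference of their responses, each to its own control. Between the response at 4 µM and that to the G9a hairpins, 12 members were higher and 33 lower (39.8%), against 44.8% of all genes (22.5% higher and 22.3% lower). Of the 15 members that fell at 4 µM, 9 rose with the G9a hairpins (60% of the 15 and 23.1% of the 39) and 0 fell, while among all genes that fell at 4 µM 51.2% rose and 16.9% fell. Of the 13 that rose at 4 µM, 6 also rose with the hairpins (46.2% and 15.4%) and 4 fell (30.8% and 33.3% of the 12): LINC00330, LINC00504, LINC00974 and LINC00996. Among all genes that rose at 4 µM, 21.6% also rose with the hairpins and 44.7% fell, and no test was made of the members against these shares.

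LINC00974 differed most, with a log2 difference of 2.93 ± 0.18 (adjusted p = 5.89e-13). It averaged 3.17 ± 0.160 CPM at 4 µM and 0.856 ± 0.0928 CPM with the G9a hairpins, and the controls differed as well (2.40 ± 0.442 CPM with scrambled and 1.15 ± 0.139 CPM with DMSO). LINC00996 (1.75 ± 0.18) and LINC00330 (1.59 ± 0.34) followed. Lowest were LINC00957 (-1.78 ± 0.32), LINC00869 (-1.42 ± 0.37) and LINC00856 (-1.40 ± 0.43), and the last lost its call without scrambled replicate 2 (adjusted p = 0.0621). For LINC00926 the difference was -1.16 ± 0.08 (adjusted p = 2.37e-12). For LINC00211, higher with both, it was 0.28 ± 0.36 and not called (adjusted p = 0.573).

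**Figure D4:**
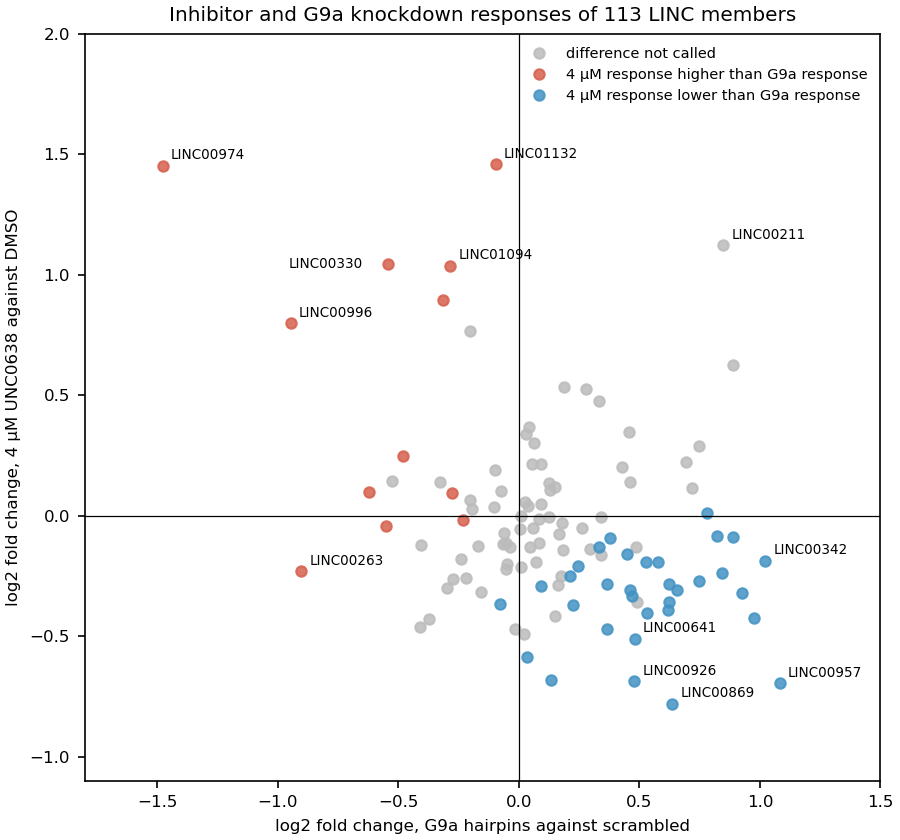
Log2 fold change at 4 µM against DMSO (y axis) over that with the G9a hairpins against scrambled (x axis) for the 113 members. Each point is a member, coloured by whether the difference between the responses passed an adjusted p of 0.05. LINC00974 and LINC00996 stand high on the left, and LINC00926 low on the right.

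Of the 38 members named for the 4 main comparisons, 32 had a tested named gene within 100 kb. Over 50 pairs of member and neighbour, counted per comparison, 22 neighbours were called in the member's direction, 4 in the opposite one and 24 not. Of all genes, 19.9% were called at 4 µM, 7.17% at 2 µM, 49.9% with G9a and 67.8% with SUV39H1. The same count was not made for neighbours of other genes. In the comparisons where the member was called, neighbours called in the opposite direction were KRT7 beside LINC00592 and KATNAL1 beside LINC00426 for G9a, HNRNPC beside LINC00641 at 4 µM and GAS6 beside LINC00565 for SUV39H1. ANXA3, beside LINC01094, was at most 0.500 CPM in any library.

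Other long noncoding RNAs were counted for reference. Of 14 tested SNHG genes, hosts of small nucleolar RNAs, 1 was higher and 4 lower at 4 µM, 1 and 9 with the G9a hairpins and 1 and 12 with the SUV39H1 hairpins. Of 394 antisense-named genes, 20 were higher and 27 lower at 4 µM, 88 and 59 with G9a and 154 and 74 with SUV39H1. Of 28 named RNAs such as MALAT1 and NEAT1, 0 were called at 4 µM by edgeR. With G9a 8 were higher and 8 lower, and with SUV39H1 11 and 8. Of all genes, 10.2% were higher and 9.73% lower at 4 µM, 25% and 24.9% with G9a, and 35.1% and 32.7% with SUV39H1. No test was made of any list against these shares. Among the members, the 15 that RefSeq lists as protein coding gave 1 higher and 4 lower at 4 µM, 4 and 1 with G9a and 7 and 2 with SUV39H1, against 12 and 11, 35 and 11, and 45 and 10 for the 98 noncoding ones. Over all comparisons, 12 members were never called, and the share of all genes never called was not counted.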

How the data were processed

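The data were 24 RNA libraries of U937 cells, with 3 per group and 8 groups by their labels. The TruSeq RNA v2 kit named in the extraction protocol, per the labels, leaves the strand of a read unknown. Per the submitters' processing notes, the authors used STAR, featureCounts and the hg19 build; versions and the treatment of multiply mapping reads are given in no source used here. Whole-number counts for 55773 names were deposited with hg19 coordinates, and a deposited other value, the summed exon length in bases, was used for levels per kilobase.

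CPM were counts over the column sum. Tests used edgeR 4.0.16 in R 4.3.3 (filterByExpr with minimum count 10 and minimum total count 15, leaving 20147 genes; TMM; quasi-likelihood fit with 1 mean per group over all 24 libraries), with contrasts of group means as comparisons and the knockdowns as the mean of their hairpins. The biological coefficient of variation was 4.63%. A call is a Benjamini-Hochberg adjusted p below 0.05 over all 20147 genes. The fit was checked on simulated data. Alternatives were DESeq2 1.42.0, other scaling, no low-count filter, the compared libraries alone, other level limits, non-overlapping members, each library left out, a replicate block and DMSO as control of the knockdowns.

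Named were the 10 members with the highest level per kilobase; for the inhibitor doses and both knockdowns, up to 8 higher and 8 lower called members with the largest fold changes whose libraries did not overlap the control's, with both hairpins called; up to 3 each way in the other contrasts; and those beside the level limit. Any member named outside that rule was picked with its values in view. The members and lists were chosen with earlier results of these data known. No 2 libraries of a group agreed within sampling noise. The disagreement, as a chi-square per gene, ran from 1.93 (2 µM replicates 2 and 3) to 21 (DMSO replicates 1 and 3). For DMSO it was 9.51 between replicates 1 and 2 and 2.78 between replicates 2 and 3. At 4 µM it reached 11.96 between replicates 1 and 3. The labels give no batch. One list of markers of other cell types is not reported here.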

Additional observations from a re-analysis of the deposited data

Results flagged for a closer look

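The response at 4 µM UNC0638 against DMSO and the response to the G9a hairpins against scrambled differed, by a contrast of both responses in edgeR (adjusted p under 0.05), for 29 of the named members. The values are log2 differences, the 4 µM response minus the G9a response. Higher at 4 µM were LINC00974 (2.93), LINC00996 (1.75), LINC00330 (1.59), LINC01132 (1.55), LINC01094 (1.32), LINC00504 (1.21), LINC01088 (0.72), LINC00263 (0.67), LINC00662 (0.51), LINC00493 (0.37) and LINC00426 (0.22). Lower at 4 µM were LINC00957 (-1.78), LINC00869 (-1.42), LINC00856 (-1.40), LINC00886 (-1.25), LINC00342 (-1.21), LINC00926 (-1.16), LINC01125 (-1.01), LINC00641 (-0.99), LINC00854 (-0.98), LINC00565 (-0.98), LINC00893 (-0.91), LINC00482 (-0.84), LINC00672 (-0.82), LINC00174 (-0.77), LINC01011 (-0.62), LINC00847 (-0.60), LINC00341 (-0.46) and LINC00938 (-0.29). Scrambled and DMSO, the controls of both responses, differed from each other for 33 members, and the part of that difference was not tested.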

How the results depend on the processing

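Of 82 values of named members, 66 kept their call under every alternative run and 16 lost it under at least 1; over 1078 recomputed values 0 changed direction. LINC00869 and LINC01125 at 4 µM and LINC00892 at 2 µM lost theirs most often. Counts of called members moved by over 1.5 times in these cases, and the cause was not tested except where fewer members were counted. A smaller set of members lowers the count by its size alone, so a lower count there shows no weaker response. At 4 µM the count of 28 became 15 in a fit of the compared libraries alone. Of the 72 members with a mean of at least 1 CPM, 8 were called at 2 µM, against 13 of all 113. Of the 54 members that overlap no other row, 18 were called at 4 µM (28 of all 113), 28 for G9a (51) and 26 for SUV39H1 (64). Between the SUV39H1 hairpins 25 were called (48), for G9a against SUV39H1 34 (60) and for scrambled against DMSO 16 (33). For the 4 µM against the G9a response the count was 21 (45). Leaving out 1 library at a time gave 18 to 27 at 4 µM, 9 to 18 at 2 µM, 40 to 50 for G9a, 57 to 65 for SUV39H1, 0 to 2 between the doses, 0 to 0 between the G9a hairpins, 37 to 46 between the SUV39H1 hairpins, 57 to 61 for G9a against SUV39H1, 28 to 31 for scrambled against DMSO and 41 to 46 for the response difference.

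Correlations of deviations between libraries with the same replicate number ran from -0.0694 to 0.2285. For 4 µM and DMSO each (0.1885, 0.0214 and 0.1141) exceeded the best for another number (-0.1006, -0.001 and 0.0852). For 2 µM and DMSO replicates 1 and 3 did (0.2285 and 0.1161, against -0.0676 and 0.0174) and replicate 2 did not. With the hairpins the order was mixed, and whether the numbers mark shared batches was not tested. With the number as a replicate block, the counts were 33 at 4 µM, 17 at 2 µM, 51 for G9a, 66 for SUV39H1, 2 between the doses, 0 and 51 between the hairpins of G9a and of SUV39H1, 60 for G9a against SUV39H1, 36 for scrambled against DMSO and 49 for the response difference. With 41 members under 1 CPM, low counts limit what can be detected, and a call that was missed does not show an equal level.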
